A study of Homo sapiens with 4 samples.

Results

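TCam-2, a line derived from a human testicular seminoma, was set against 3 other testicular germ cell tumour lines to find the genes whose level lay outside the range of all of them. On log2 intensities, with 1 probe set per gene and values under the median of all values (76.4 units, the floor) raised to it, each gene was ranked by its gap to the nearest other line. Of 14926 genes compared, 333 lay at least 4-fold beyond that line. In TCam-2, 222 were higher, 1.49% of the genes compared, and 111 were lower, 0.744%.

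RNA of 4 established lines was hybridised to Affymetrix arrays, 1 array per line, to find genes silenced in non-seminoma. NT2D1 is labelled teratoma and came from a lung metastasis of a testicular germ cell tumour, but many laboratories use it as a pluripotent embryonal carcinoma line. GCT27 represents embryonal carcinoma and GCT44 yolk sac tumour. Every line is a single culture of untreated cells in serum with antibiotics, grown in RPMI for TCam-2 and in DMEM for the other 3, so medium and tumour type cannot be told apart. No line has a replicate, so no value below carries a replicate error and no difference has a replicate check. The threshold sets a size and tests nothing. Median intensity lay between 73.6 and 79.3 on the 4 arrays. The signal ratio of the 3' to the 5' end of ACTB was 4.21 on the GCT44 array against 2.49 to 2.97 on the others. Without GCT44 316 genes were higher and 268 lower, but dropping any line relaxes the rule. Without GCT27 the counts were 361 and 202, and without NT2D1 301 and 173.

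Seminoma cells resemble primordial germ cells, the embryonic founders of the germ line. They keep a pluripotency network that runs with SOX17 and TFAP2C, where embryonal carcinoma cells use SOX2. Embryonal carcinoma corresponds to the pluripotent epiblast and yolk sac tumour to extraembryonic endoderm. Promoter DNA of germ cells and of seminoma is broadly unmethylated at CpG dinucleotides, while non-seminoma carries more methylation, which is why a promoter's CpG content is of interest in this comparison.

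Promoters of 6 genes are shown because they stand at both ends of the ranking or belong to neighbouring genes called together. Each is the 250 bases before the transcription start, 5′ to 3′ on the gene's strand, from RefSeq on GRCh38.p14, with every CpG in capitals. The first is that of CGA, the alpha subunit shared by the gonadotropins and thyrotropin, at chr6:87095107-87095356 on the minus strand. GPX2, a glutathione peroxidase of epithelia, lies at chr14:64942746-64942995 on the minus strand. TCL1A, an AKT coactivator of germ cells and lymphocytes, lies at chr14:95714126-95714375 on the minus strand, and its paralogue TCL1B at chr14:95686176-95686425 on the plus strand. ZIC2, a zinc finger factor of epiblast and neural tissue, lies at chr13:99981534-99981783 on the plus strand. BEX1, a small adaptor of neural cells, lies at chrX:103064172-103064421 on the minus strand.
CGA: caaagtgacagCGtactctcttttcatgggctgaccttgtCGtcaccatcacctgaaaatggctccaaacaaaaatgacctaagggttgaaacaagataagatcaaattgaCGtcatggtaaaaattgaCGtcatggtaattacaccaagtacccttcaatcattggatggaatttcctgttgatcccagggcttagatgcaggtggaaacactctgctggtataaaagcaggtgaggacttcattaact
GPX2: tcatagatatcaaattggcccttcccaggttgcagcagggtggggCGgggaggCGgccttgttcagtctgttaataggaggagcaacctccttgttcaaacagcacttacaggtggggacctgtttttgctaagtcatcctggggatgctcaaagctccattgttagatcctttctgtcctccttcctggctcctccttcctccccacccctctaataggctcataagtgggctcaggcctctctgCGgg
TCL1A: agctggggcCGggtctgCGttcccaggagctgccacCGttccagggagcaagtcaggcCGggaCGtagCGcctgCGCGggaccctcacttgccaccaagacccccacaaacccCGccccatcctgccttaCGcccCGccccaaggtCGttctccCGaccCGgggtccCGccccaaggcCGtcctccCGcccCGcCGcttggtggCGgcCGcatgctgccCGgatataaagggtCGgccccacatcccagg
TCL1B: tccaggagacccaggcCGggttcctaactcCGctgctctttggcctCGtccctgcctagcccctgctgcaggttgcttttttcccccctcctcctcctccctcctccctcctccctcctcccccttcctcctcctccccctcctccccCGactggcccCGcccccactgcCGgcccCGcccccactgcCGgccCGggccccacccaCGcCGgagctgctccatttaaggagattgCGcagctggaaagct
ZIC2: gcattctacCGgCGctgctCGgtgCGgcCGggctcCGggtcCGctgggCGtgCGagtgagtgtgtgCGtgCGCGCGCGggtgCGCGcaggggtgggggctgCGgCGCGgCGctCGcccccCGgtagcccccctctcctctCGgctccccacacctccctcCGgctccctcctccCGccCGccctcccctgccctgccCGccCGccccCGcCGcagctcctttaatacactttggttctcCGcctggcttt
BEX1: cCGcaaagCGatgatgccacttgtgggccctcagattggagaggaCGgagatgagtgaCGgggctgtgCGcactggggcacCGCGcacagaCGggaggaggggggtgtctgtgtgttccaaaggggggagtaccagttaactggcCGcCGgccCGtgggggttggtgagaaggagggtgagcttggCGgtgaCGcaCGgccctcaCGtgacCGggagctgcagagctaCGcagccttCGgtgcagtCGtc
The promoters of CGA and GPX2 held 4 and 3 CpG, those of TCL1B and TCL1A 12 and 23, and those of BEX1 and ZIC2 19 and 31. The median was 19 CpG over 17250 promoters of 11927 genes. The CGA promoter held 2 copies of TGACGTCA, the cAMP response element, which reads the same on both strands and which 2.32% of these promoters contain at least once. The palindrome GCCNNNGGC, bound by the TFAP2 family, was searched on both strands and occurred in 25.4% of promoters and once in that of BEX1. These are matches of letters and not measured sites. No comparison of promoter composition was made over the called genes: a promoter was matched for 149 of 222 higher genes (67.1%) and 95 of 111 lower genes (85.6%), and with under 80% matched among the higher genes such a check is void.

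The labelled cell type was checked first on its defining markers. Intensities are given throughout in the order TCam-2, NT2D1, GCT27 and GCT44. SOX17, the factor that specifies human primordial germ cells, had 3819, 10.4, 44.2 and 42.7 units, with all 3 other lines below the floor. PRAME, a repressor of retinoic acid receptors, had 9713, 5.65, 13.3 and 79.5 units. TFAP2C, which acts with SOX17 in germ cell specification, had 20557, 1901, 2442 and 72.3 units and was 8.42-fold above GCT27. All 3 markers were highest in TCam-2, as its label has it. KIT, the stem cell factor receptor often used to recognise seminoma, had 1144, 1160, 1375 and 1771 units and did not set the line apart. The germ cell genes NANOS3 and DDX4 and the placental alkaline phosphatase ALPP were below the floor on every array.

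The 222 higher genes were not all of one kind. For 68 of them every other line was below the floor, and "at least" before a fold marks such a bound. In 69 all the other lines were above it. The median fold was 6.31, with quartiles of 4.80 and 11.5, and 30 genes were past 16-fold. The 111 lower genes had a median fold of 5.97, and 12 were past 16-fold. TCam-2 itself was below the floor for 36 of them. A gene passes the filter, which asks that at least 1 array reach the floor, and the rule upward through TCam-2 alone, whereas a call downward needs all 3 other lines to be bright, so the counts of higher and lower genes are not equally easy to reach. Without the floor the lower genes numbered 326, because values that have no reliable order then count.

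**Figure D1:**
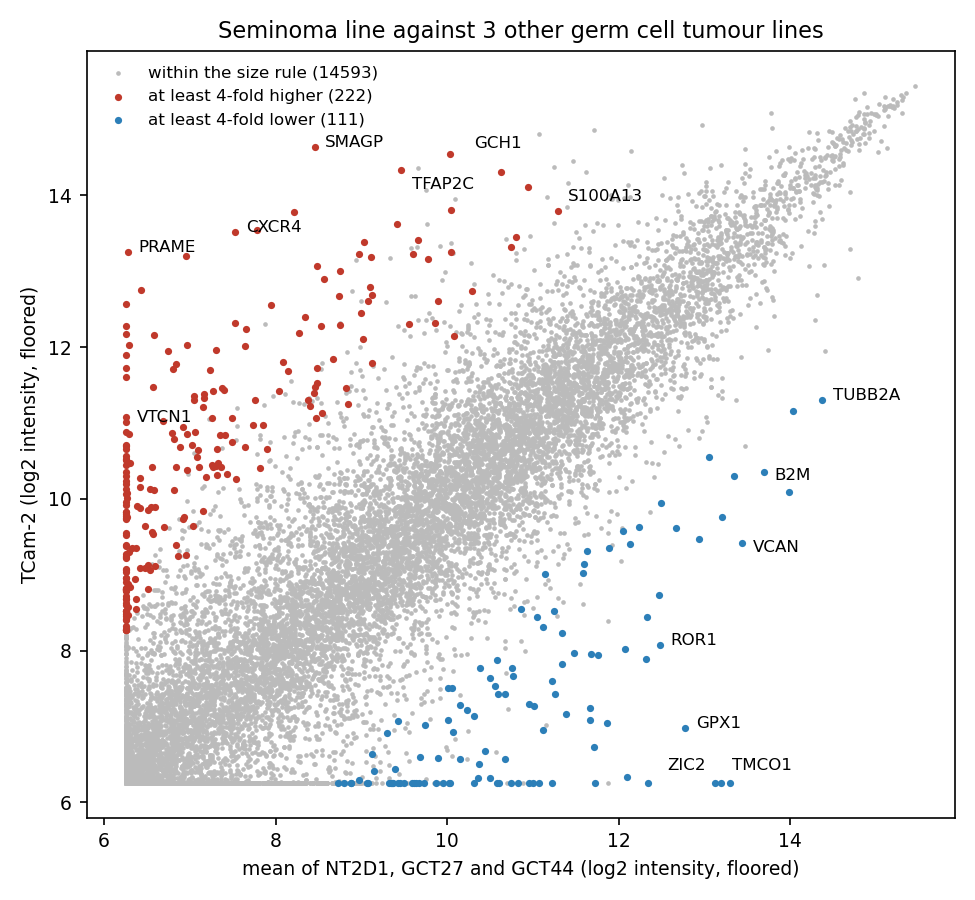
Each point is 1 of 14926 genes, with its log2 intensity in TCam-2 on the vertical axis and the mean log2 intensity of NT2D1, GCT27 and GCT44 on the horizontal axis, both raised to the floor of 76.4 units. The 222 higher genes (red) and the 111 lower genes (blue) flank the diagonal, and a column of red points at the left edge marks genes below the floor in every other line.

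Genes at the threshold show how little separates a called gene from the next. Just inside on the higher side were SPESP1, SCUBE3, GPC1-AS1, EEIG2 and BCAR4, at 4.02-fold to 4.04-fold (at least, for GPC1-AS1 and BCAR4). Just outside were SDC2, DDIT4L, DMRT1, PENK and PYCARD, at 3.95-fold to 3.99-fold. DMRT1, a germ cell and Sertoli cell factor, had 564, 14.7, 142 and 5.60 units and so missed the rule narrowly through GCT27. On the lower side RASSF8, AUTS2, SAP30, PGM2L1 and NQO2 lay just inside at 4.06-fold to 4.22-fold, and DIAPH2, SOCS2, EOGT, COL21A1 and VAV3 just outside at 3.92-fold to 3.98-fold.

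Germ line genes came next. Of 35 primordial germ cell and seminoma genes compared, 11 were higher (31.4%) and 0 lower. Over all genes 1.49% were higher and 0.744% lower, the shares to set beside each list count below. SOX17, PRAME and TFAP2C are among the 11, and apart from these markers it was 8 of 32 (25.0%), the same share as in the list of trophoblast genes. Over all 35 the median log2 difference between TCam-2 and the mean of the others was 2.06 against -0.06 over all genes. It was 1.22 when the median of each gene's probe sets was taken and 1.32 with no filter on low values. TFCP2L1, a factor of naive pluripotency, had 2528, 84.7, 361 and 45.7 units, 7.0-fold above GCT27. TDRD9, a helicase of the piRNA pathway, had 889, 6.34, 36.4 and 32.8 units and was at least 11.6-fold higher. ARID5B, a chromatin-binding factor, had 2764, 152, 142 and 220 units, 12.6-fold above GCT44, but with the median of its probe sets it fell below the filter. In none of these did another line exceed 361 units. KLF4 (6.02-fold), HEY1 (4.71-fold) and TCL1B (4.48-fold) were also higher, each with GCT27 nearest. The calls of HEY1 (margin 1.99) and TCL1B (1.92) were lost when arrays were scaled to the spiked-in controls, which left 9 higher members. Among the 24 members within the rule, NANOG had 22390 units in TCam-2 and 22428 in GCT27, and PRDM1, a repressor of somatic genes in germ cells, had 2481, 177, 93.1 and 1550. Pluripotency members such as NANOG and DPPA4 were below the floor in GCT44 alone, and without that line the list's median difference was 0.48, although 12 members then met the rule.

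DDX43, a helicase of the germ line, had 1175, 3.78, 23.2 and 3.21 units and was at least 15.4-fold higher. Along with XAGE2 (19.5-fold), LUZP4 (at least 5.37-fold) and SYCP2 (at least 6.27-fold), a component of the meiotic chromosome axis, it was 1 of 4 higher members of 27 cancer-testis genes. The median of that list was -0.25. XAGE2 belongs to a family of near-identical genes, so its probe set can read other members. SYCP2 fell short when the median of its probe sets was taken (log2 margin 1.73), and both SYCP2 (1.91) and LUZP4 (1.69) did with a floor at the 60th percentile. DNMT3L, the inactive partner of the de novo DNA methyltransferases, was the only called member of 28 DNA methylation genes, with 2083, 15.0, 189 and 8.92 units, 11-fold above GCT27. RBMXL2, a testis-expressed RNA-binding protein, had 1884, 15.6, 4.46 and 16 units and was at least 24.6-fold higher.

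Epithelial genes formed the next group. Of 41 keratin, junction and epithelial genes, 8 were higher and 1 lower, with a median difference of 1.56, and TCam-2 was the highest line for 30. ST14, the membrane protease matriptase, had 1117, 47.9, 63.1 and 9.97 units and was at least 14.6-fold higher. CLDN4, a tight junction claudin, had 863, 5.10, 47.5 and 8.35 units, at least 11.3-fold higher. DSC3, a desmosomal cadherin of stratified epithelium, had 1374, 90.4, 120 and 55.0 units, 11.4-fold above GCT27. In no other line did these 3 exceed 120 units. RAB25, a GTPase of apical recycling, was 6.78-fold higher and the junction plaque protein JUP 4.40-fold higher. CDH11, a mesenchymal cadherin, was the lower member, with 3.30, 3017, 509 and 1338 units, at least 6.66-fold lower, but its call was lost under both probe set alternatives, the median of all its probe sets and the omission of those ending in _s_at or _x_at, which can match several transcripts, and with the floor at the 60th percentile. General epithelial genes did not set TCam-2 apart from GCT27: CDH1, which encodes E-cadherin, had 17193, 580, 14524 and 5.77 units and EPCAM 28656, 5782, 22390 and 69.2. Without GCT27, 17 members of this list were higher.

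The ranking also held several genes of surface epithelium and amnion, and a list of such genes was therefore drawn up after the values were seen. Of its 22 members compared, 15 were higher and 0 lower, with a median difference of 3.84. Among the 15 is TFAP2C, already counted with the germ cell markers. Because the list was chosen on these arrays, its count describes them and supports nothing further. ZNF750, a factor of epidermal differentiation, had 1658, 25.0, 5.11 and 3.55 units and was at least 21.7-fold higher. GRHL1, a grainyhead factor that controls desmosomal genes, had 6012, 90.7, 360 and 456 units, 13.2-fold above GCT44. VTCN1, an immune checkpoint ligand also found in amnion and trophoblast, had 2070, 49.6, 53 and 39.4 units, at least 27.1-fold higher. No other line had more than 456 units of any of them. TINCR, an RNA of epidermal differentiation, was 11.5-fold higher, the GABA receptor subunit GABRP 8.12-fold and the cytolinker EPPK1 7.26-fold. OVOL1 and OVOL2, repressors of mesenchymal genes, were 4.30-fold and 5.78-fold higher, and SP6 was 4.51-fold higher. The OVOL2 call was lost without multi-transcript probe sets (margin 0.24), that of EPPK1 with the median over probe sets (1.56) and that of OVOL1 with scaling to the spiked-in controls (1.86). TINCR fell below the filter under both probe set alternatives. Under these 11 of 20 members, with the median, and 10 of 19, without multi-transcript probe sets, were higher.

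**Figure D2:**
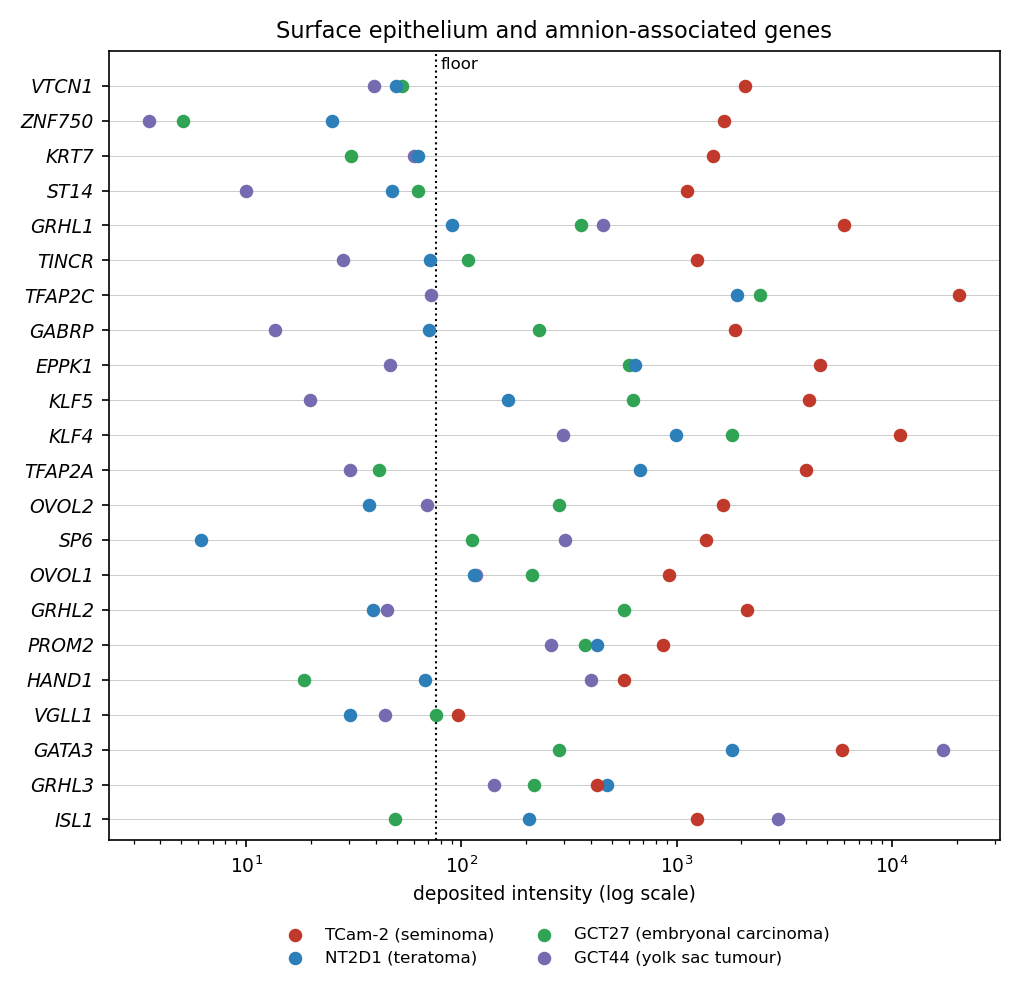
Deposited intensity (log scale) of the 22 surface epithelium and amnion-associated genes compared, 1 point per line, ordered by their margin in TCam-2 with the widest at the top and the floor of 76.4 units dotted. TCam-2 (red) lies to the right of every other line for 19 of the 22, while GATA3 and ISL1 were highest in GCT44 and GRHL3 in NT2D1.

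Some transcription factors of this list, an amnion factor among them, did not meet the rule. GATA3 had 5874, 1806, 283 and 17360 units and ISL1, an amnion and cardiac factor, 1249, 206, 49.2 and 2961, both highest in GCT44. HAND1 had 568, 68.0, 18.6 and 399 units, 1.43-fold above GCT44. In these the yolk sac tumour line was the nearest or the highest. GRHL2, a close relative of GRHL1, had 2128, 38.9, 567 and 45.0 units, 3.75-fold above GCT27 and short of the rule.

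Trophoblast and placental genes overlapped these. Of 28 compared, 7 were higher and 0 lower, with a median difference of 1.32, and TCam-2 was the highest line for 20. CGA, whose promoter is shown above, had 4626, 12.7, 7.01 and 12.1 units. GCM1, a driver of syncytiotrophoblast fusion, had 410, 9.16, 45.9 and 9.21 units and was at least 5.36-fold higher, a call lost with the floor at the 60th percentile (margin 1.68). The placental fusion proteins of retroviral origin followed, with ERVFRD-1 at 877, 2.66, 2.01 and 4.77 units and ERVW-1 at 759, 41.8, 78.7 and 139 units, 5.47-fold above GCT44. EGFR had 2579, 214, 172 and 80.6 units, a 12.1-fold difference. KRT7 was at least 19.3-fold higher by its brightest probe set, but its call was lost under both probe set alternatives, with margins of 0.09 and 0.06, and that of EGFR was lost with the median (0.00). The summed intensity of the list was 81486, 51825, 33673 and 40313, and ELF5, CDX2 and ERVV-1, which mark trophoblast, were below the floor on every array. PEG10, a placental gene of retroviral origin, was lowest in TCam-2 at 3144 units against 5676 to 12626.

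The choice of probe set changed the values of this list. With the median over each gene's probe sets 5 of 27 members were higher and the median difference was 0.53, and with no filter on low values it was 0.67. With the probe set of the highest linear mean in place of the highest mean log2, which was tried after the values were seen, 10 of 29 members were higher. A linear mean favours a probe set that is bright on 1 array, so calls gained this way are partly set by that choice. VGLL1, a cofactor of TEAD factors in trophoblast, then had 1318, 4.18, 1.07 and 1.34 units, whereas its probe set used here had 96.6 in TCam-2. HSD3B1, a steroid dehydrogenase of placenta, had 836, 2.79, 29.2 and 34.2 units, and CYP19A1, the aromatase, 483, 31.4, 8.56 and 6.14. By the same choice PROM2, a membrane protein of epithelial protrusions, had 2770, 54.5, 197 and 43.1 units. For VGLL1, then, 1 probe set was bright in TCam-2 alone, while the probe set used here was dim there.

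Hormone and growth factor signalling held calls in both directions. PRLR, the prolactin receptor, was among the widest margins. TNFSF9, a costimulatory ligand of the TNF family, had 4850, 98.5, 337 and 245 units, 14.4-fold above GCT27. IL6 had 1232, 135, 218 and 219 units, 5.62-fold higher, and IL6ST, the signalling subunit of its receptor, 20290, 867, 1100 and 4155, 4.88-fold higher. The growth factor PDGFC was 5.62-fold higher. ROR1, a receptor for WNT5A, went the other way with 270, 7017, 6323 and 4206 units, 15.6-fold below GCT44, and its other 2 probe sets bright enough for a 4-fold fall each passed it. NRG1, EPHA4 and STC1 were at least 5.54-fold, 5.52-fold and 6.64-fold lower. The NRG1 call was lost without multi-transcript probe sets (margin -0.38), that of EPHA4 was lost with the median over probe sets (-0.44), and NRG1 fell below the filter with that median. With the floor at the 60th percentile all 3 calls were lost, with margins of -1.73 for both NRG1 and EPHA4 and -1.99 for STC1. Of 37 ligands 2 were higher and 2 lower (5.41% each), and of 47 receptors 3 (6.38%) and 2 (4.26%). Over all genes these shares were 1.49% and 0.744%, and calls this few in lists of this size say little. The list medians were -0.32 and -0.04.

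Receptors and surface proteins outside growth factor signalling included CXCR4, the receptor that guides migrating germ cells, with 11729, 439, 91.5 and 157 units. CD38, an ectoenzyme that consumes NAD, had 1390, 8.33, 7.44 and 60.1 units and was at least 18.2-fold higher. ADGRG1, an adhesion receptor, had 1964, 146, 158 and 25.4 units, 12.5-fold above GCT27. All 3 other lines lay far under TCam-2 in each. HCAR3 (13.7-fold) has a near-identical neighbour, HCAR2, so its probe set can read both. CACNA2D2, a calcium channel subunit, had 8582, 539, 652 and 131 units, 13.2-fold higher. Of 44 G protein-coupled receptors 4 were higher (9.09%) and 3 lower (6.82%), against 1.49% and 0.744% of all genes. P2RY1 was 5.42-fold and GPR19 5.75-fold lower.

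Metabolic and stress genes made up another part of the ranking. GCH1, the first enzyme of tetrahydrobiopterin synthesis, had 23866, 754, 1266 and 1196 units, 18.9-fold above GCT27. STS, the steroid sulfatase, had 5396, 281, 426 and 288 units, 12.7-fold higher, and HPGD, which inactivates prostaglandins, 11914, 54.5, 1817 and 14.6, 6.56-fold higher. ANGPTL4, an inhibitor of lipoprotein lipase, had 1857, 10.2, 81.2 and 73.4 units, 22.9-fold above GCT27. Apart from HPGD in GCT27, no other line exceeded 1266 units for these. ACAT2, an enzyme of acetoacetyl-CoA metabolism, was 9.63-fold lower with 424, 8696, 5209 and 4081 units.

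TRIB3, a pseudokinase induced by stress, had 9342, 524, 483 and 666 units, 14-fold above GCT44. NUPR1, a stress-induced chromatin protein, had 1460, 34.3, 66.2 and 59.3 units and was at least 19.1-fold higher. DDIT3, the stress factor CHOP, had 1613, 362, 197 and 193 units, 4.45-fold higher, and CEBPB 10212, 2125, 2448 and 963, 4.17-fold higher. The CEBPB call was lost with scaling to the spiked-in controls (margin 1.81). A list of 25 integrated stress response genes drawn up after these were seen had 4 higher members and 1 lower, a median difference of 1.10, and TCam-2 highest for 18. The difference was small for most, as for ATF4, the central factor of the response, with 16900, 13161, 6936 and 9748 units. HSPA5, the main chaperone of the endoplasmic reticulum, had 21176, 18501, 20507 and 21439 units. ATF6, a sensor of that compartment, was the lower member with 94.9, 1324, 1637 and 2009 units, 14-fold below NT2D1, and its 3 other probe sets each passed 4-fold. The culture medium differs between TCam-2 and the other lines and cannot be told apart from the line here.

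Matrix genes moved both ways. Of 54 compared, 5 were higher (9.26%) and 4 lower (7.41%), against 1.49% and 0.744% of all genes, with a median of -0.48. CTHRC1, a secreted protein of collagen matrix that is not in that list, had 14051, 384, 893 and 28.3 units, 15.7-fold above GCT27. EFEMP1, a fibulin, had 12612, 281, 1101 and 1027 units, 11.5-fold higher, and the microfibril protein MFAP5 was 5.68-fold higher. VCAN, the proteoglycan versican, had 681, 8740, 10025 and 15679 units, 12.8-fold below NT2D1, and all 4 of its other probe sets passed 4-fold. The microfibril genes FBN1 (5.88-fold) and FBN2 (5.55-fold) were lower. The median over probe sets ended the calls of LAMA4 (at least 15.7-fold higher, margin 0.02 there) and COL3A1 (11-fold higher, 1.63). It also ended those of COL1A1 (5.03-fold lower, -0.33), FBN1 (0.00) and FBN2 (-0.88). Their 4-fold size thus depends on the probe set chosen, while no margin changed sign. COL3A1 had 1 other probe set bright enough to show a rise, and it passed 4-fold. LUM, at 13.9-fold higher, did not meet the rule without multi-transcript probe sets (0.81), and LAMA4 and COL3A1 then fell below the filter.

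Calcium-binding S100 proteins included S100A6 with 1258, 5.25, 6.73 and 6.45 units, at least 16.5-fold higher, and S100P with 995, 61.4, 4.83 and 10.5, at least 13-fold higher. S100A13, abundant in every line, had 14155, 2244, 2657 and 2628 units, 5.33-fold higher. They were 3 of 12 members compared, chosen as a list after the values were seen. S100A10 had 9856, 5613, 11906 and 29765 units. Enzymes that start and cap mucin-type sugars, also listed afterwards, had 3 higher members of 21, GALNT6 (7.53-fold), ST6GALNAC1 (at least 11.9-fold) and ST6GALNAC2 (at least 7.81-fold), while the list's median was -0.32.

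Among the curated lists, the neural list held the most lower genes. Of 51 neural and neuronal genes 0 were higher and 6 lower, with a median difference of -1.62, and TCam-2 was the lowest line for 29. Low levels were shared with GCT44: 21 of the 51 were below the floor in TCam-2 and 19 in GCT44, against 5 in NT2D1 and 8 in GCT27. CNTNAP2, an axonal adhesion protein, had 132, 5667, 1616 and 5709 units, 12.2-fold below GCT27, and its 3 other probe sets each passed 4-fold. UCHL1, a ubiquitin hydrolase of neurons and germ cells, had 708, 8180, 11418 and 5120 units, 7.23-fold lower, a call that was lost without multi-transcript probe sets (margin -0.47). ROBO1, an axon guidance receptor, had 651, 3249, 4296 and 3894 units, 4.99-fold lower. All 3 were above the floor in TCam-2. TUBB2A and TUBB2B, at 5.97-fold and 4.87-fold lower, encode near-identical tubulins, so signal can be shared between them, and the TUBB2B call was lost with scaling to the spiked-in controls (-1.98). Without multi-transcript probe sets 3 of 40 members were lower, and without GCT44 14 members were.

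Embryonal carcinoma genes had a median difference of -1.33 but only 2 of 27 met the rule, ZIC2 and SALL1, and 11 of the 27 were below the floor in GCT44 against 4 in TCam-2. ZIC2 had 3.10, 11603, 10584 and 8268 units. SFRP2, a WNT modulator, had 3.86, 6124, 9777 and 44.5 units, and THY1, a surface marker of pluripotent cells, 124, 1668, 2334 and 30.2. Without GCT44 as a reference 7 members were lower. Without NT2D1 or without GCT27 the median difference was -0.87, and without GCT27 5 members were lower and 1 higher. Among other lower genes TMCO1, whose product releases calcium from the endoplasmic reticulum, was below the floor in TCam-2 on its brightest probe set. Its 3 other probe sets read 17.3, 3.09 and 89.0 units there against at least 1098, 2264 and 1374 in the other lines.

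**Figure D3:**
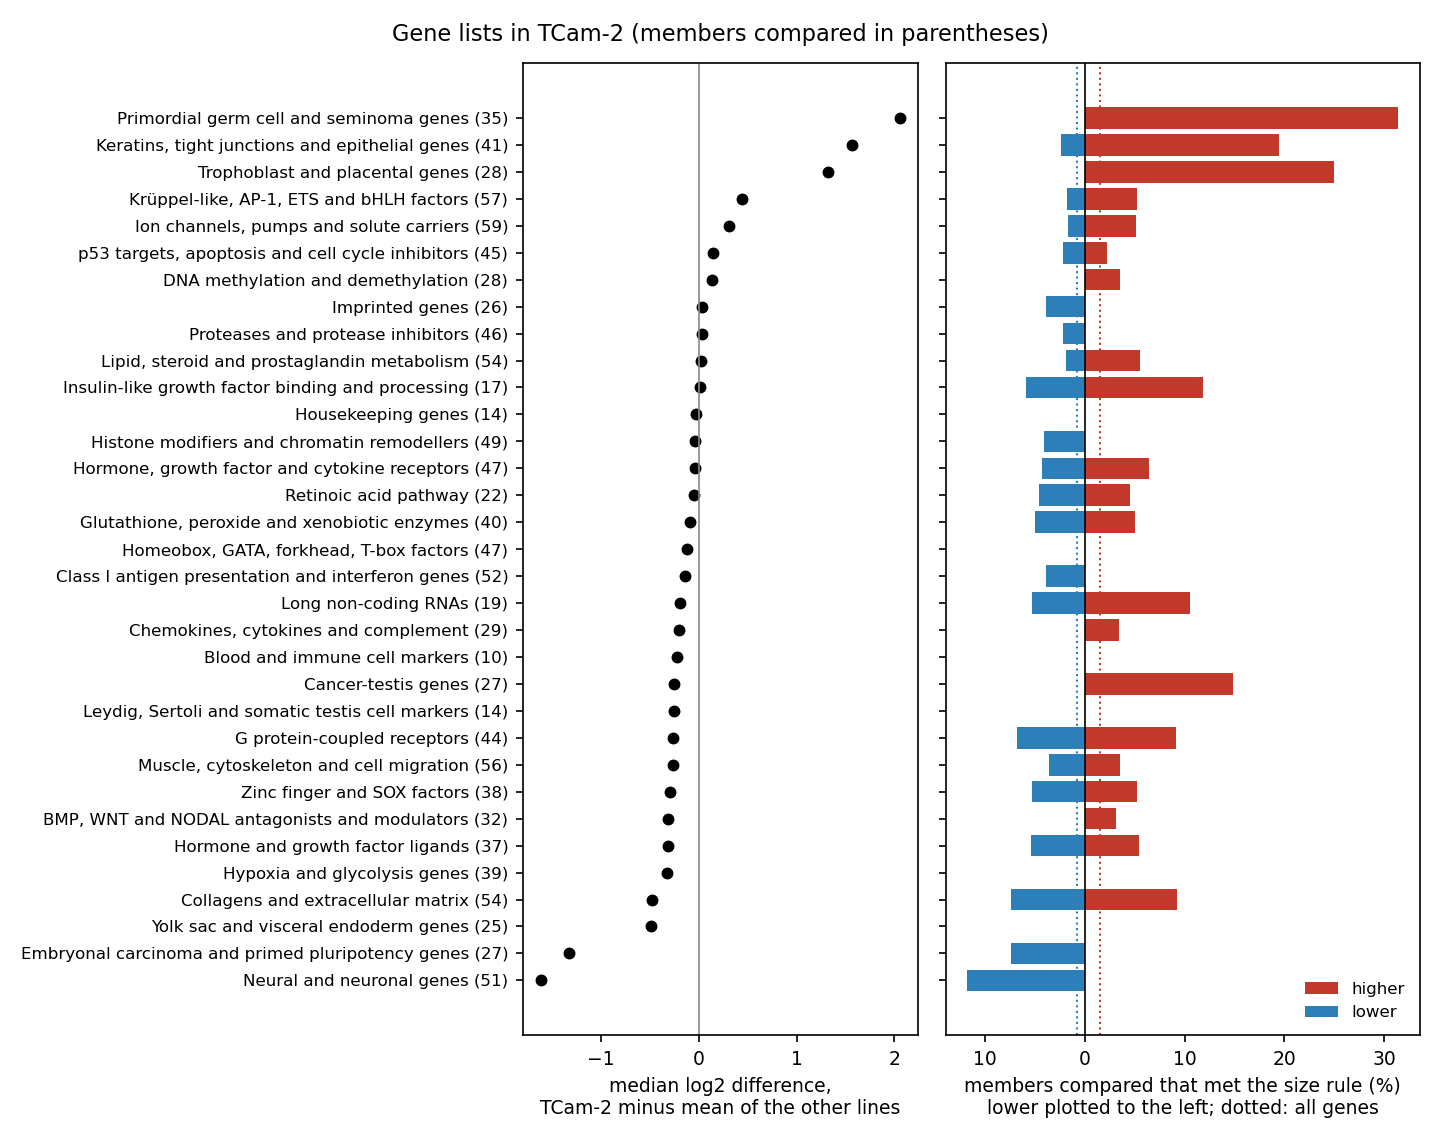
Left, the median log2 difference between TCam-2 and the mean of the other lines for each of 33 gene lists. Right, the percentage of members compared that were at least 4-fold higher (red) or lower (blue), with dotted lines at the 1.49% and 0.744% of all genes. Germ cell, epithelial and trophoblast lists lie at the top with medians of 2.06, 1.56 and 1.32, and embryonal carcinoma and neural lists at the bottom with -1.33 and -1.62.

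Of 49 histone modifiers and chromatin remodellers 0 were higher and 2 lower (4.08%, against 0.744% of all genes), with a median difference of -0.04. MYSM1, 1 of the 2, had 43.6, 2232, 2695 and 1667 units and was at least 21.8-fold lower. Its call was lost with the median over probe sets (margin 0.00). Single genes outside that list lay among the lower ones. NAP1L3, a nucleosome assembly protein of neural tissue, had 107, 4753, 5044 and 1576 units, 14.8-fold below GCT44. HMGN5, a nucleosome-binding protein, had 172, 2859, 2996 and 1701 units, 9.90-fold lower, but not without multi-transcript probe sets (margin 0.00). CENPV, a centromere protein, had 237, 6737, 1973 and 10149 units, 8.32-fold below GCT27. The level in TCam-2 was the lowest of the 4 for each. RB1, the retinoblastoma tumour suppressor, had 368, 2282, 1817 and 3432 units, 4.94-fold lower. FKBP5, a cochaperone of steroid receptors, had 157, 1771, 2027 and 2189 units, 11.3-fold lower. TCam-2 stayed above the floor for NAP1L3, HMGN5, CENPV, RB1 and FKBP5, so their folds are measured. CYBA, a subunit of the NADPH oxidase, was 11.9-fold lower with 91.2, 1466, 1084 and 1462 units, but fell below the filter without multi-transcript probe sets, as did B2M. B2M, the light chain of class I molecules, and BST2 were the lower members of 52 class I and interferon genes, with 0 higher and a median of -0.14.

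Several families held members on opposite sides. GPX2 had 4551, 82.9, 140 and 18.6 units, 32.5-fold above GCT27, and GPX1, its ubiquitous relative, 126, 16612, 5145 and 4056, 32.2-fold below GCT44. TRIB2 had 246, 5847, 3226 and 2187 units, 8.90-fold lower, opposite to TRIB3. THUMPD2 and THUMPD3, methyltransferases that modify RNA, were 9.58-fold higher and 12.3-fold lower. TCam-2 was the highest line for one gene of each pair and the lowest for the other. GPRC5A and GPRC5B, orphan receptors, were 4.32-fold higher and 4.42-fold lower, with the GPRC5B call lost under both probe set alternatives and both calls lost with scaling to the spiked-in controls (1.86 and -1.85). RASSF2 and RASSF8, and VWA1 and VWA5A, split likewise. GPX1 and GPX2 each had no other probe set bright enough to show the difference.

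**Figure D4:**
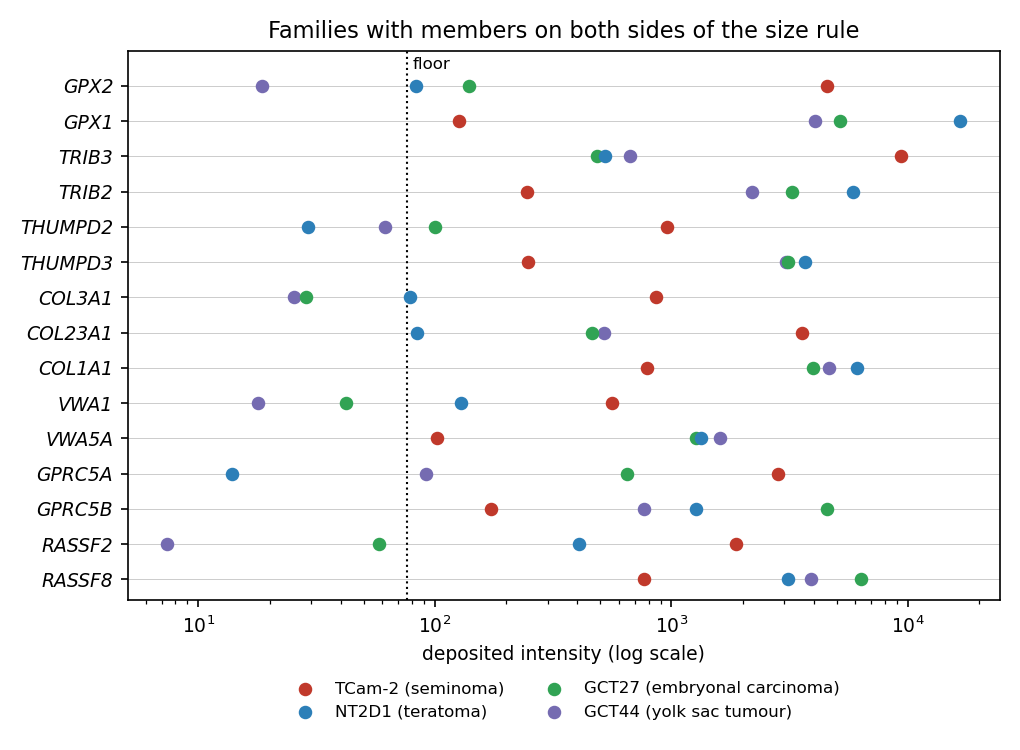
Deposited intensity (log scale) in the 4 lines for the genes of 7 families with members called in both directions, with the floor of 76.4 units dotted. TCam-2 (red) is the rightmost point for one member and the leftmost for another, as for GPX2 with 4551 units and GPX1 with 126.

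Genes called lower were more frequent on the X chromosome than elsewhere, with 15 of 548 genes compared (2.74%) against 0.744% over all chromosomes. They included BEX1, TMEM47, NAP1L3, HMGN5, ZNF711 and TCEAL4. AP1S2, a clathrin adaptor subunit named here after its values were seen, had 1265, 9492, 14056 and 8432 units, 6.67-fold lower, with all 3 other probe sets past 4-fold. Only 7 genes of this chromosome were higher (1.28%). BEX and TCEAL genes, small proteins encoded in a cluster on Xq and listed after the values were seen, had 2 lower members of 12 and a median difference of -1.89, and TCam-2 was the lowest line for 10. BEX1 had 74.9, 17415, 11773 and 3504 units and TCEAL4 785, 6368, 5728 and 7513. BEX3 had 7673, 25696, 25332 and 34933 units, 3.30-fold lower and short of the rule. Gene copy number of the lines was not measured here, and its part in this was not tested. On chromosome 8, 16 of 544 genes were higher (2.94%).

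**Figure D5:**
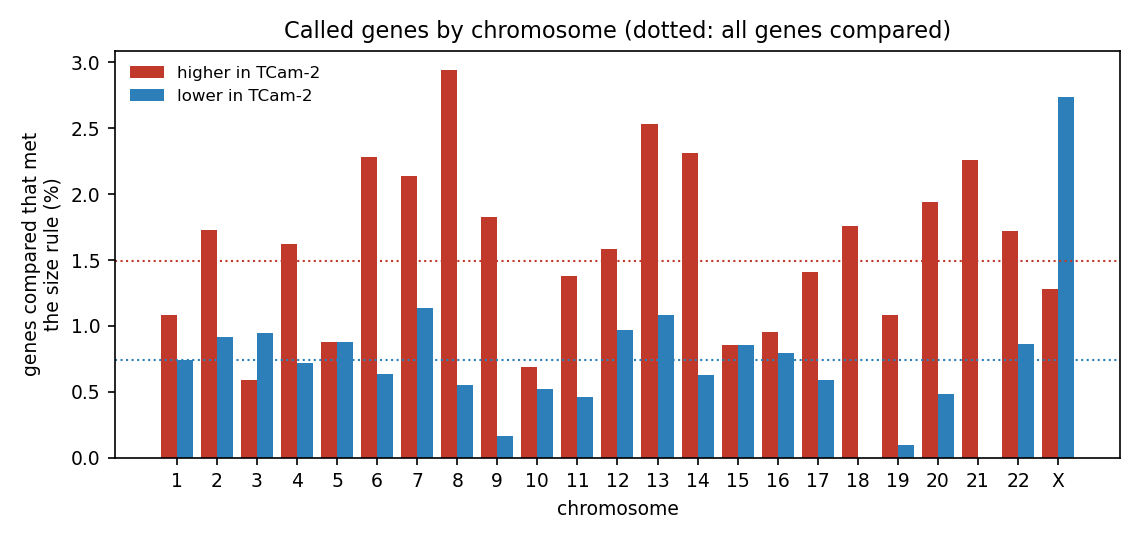
Percentage of the genes compared on each chromosome that were at least 4-fold higher (red) or lower (blue) in TCam-2, with dotted lines at 1.49% and 0.744% for all genes. The X chromosome has the highest share of lower genes at 2.74% and chromosome 8 the highest share of higher genes at 2.94%.

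Higher genes also lay side by side. With the genes compared ordered by their start in RefSeq, the places next to a higher gene numbered 441, each counted once per higher gene, and 32 of them held another higher gene (7.26%), against 1.49% of all genes, in 16 pairs. For lower genes it was 6 of 222 places (2.70%) in 3 pairs, of which TUBB2A with TUBB2B are near-identical and RASSF8 with its antisense RNA overlap. TCL1A and TCL1B had 1615 and 1674 units in TCam-2, with 373.8 units of TCL1B in GCT27 as the highest value elsewhere. GPX2 adjoins RAB15, a small GTPase, with 14361, 1451, 1003 and 803 units, 9.90-fold higher. ANGPTL4 adjoins KANK3 (6.68-fold), DDX43 adjoins OOEP (5.32-fold), an oocyte protein, and ST6GALNAC1 adjoins ST6GALNAC2. These pairs were named after their values were seen. Paralogue pairs can share signal through similar sequence, which was not tested for TCL1A with TCL1B or for the ST6GALNAC genes.

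A second probe set gave a further reading for part of the calls. Of the 222 higher genes 95 had no other probe set and 62 had none bright enough to show a 4-fold rise. Of the 65 that had one, 54 passed 4-fold and 63 passed 2-fold on it. Bright enough here meant that at least 1 array reached 4 times the floor, which TCam-2 alone could supply. A second probe set dim in every line was left out, so this agreement is partly set by the selection. For the 111 lower genes, all 3 other lines had to reach that level. Here 33 had no other probe set, 47 had none bright enough, and of the other 31, 25 passed 4-fold and 30 passed 2-fold. The exception among lower genes was ELP5, a subunit of the elongator complex.

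Markers of other cell types were examined next. Of 10 blood and immune genes and 14 somatic testis genes compared 0 were called. Over all genes 1.49% were higher and 0.744% lower, so 0 calls in lists as short as those below says little. The highest blood marker in TCam-2 had 141 units. The highest somatic testis marker, with 564, was DMRT1, the germ cell and Sertoli cell factor that missed the rule narrowly. TCam-2 was the highest line for 3 of the 14. The summed intensities of the blood and somatic testis lists were 708 and 2205 in TCam-2, the lowest of the 4 lines. The others had 1058 to 3789 and 3422 to 5264. PTPRC, the pan-leukocyte marker, was below the floor on every array. Of 25 yolk sac genes 0 were called, with a median of -0.49. Housekeeping genes had a median of -0.02 with 0 of 14 called, and hypoxia and glycolysis genes -0.32 with 0 of 39. Of 47 homeobox, GATA, forkhead and T-box factors 0 were called. Of the called genes, 147 higher and 73 lower ones belonged to no list. Among these were FAM221A (at least 28.3-fold higher), PYGB, the brain form of glycogen phosphorylase (at least 21.8-fold, but below the filter without multi-transcript probe sets), TMEM30B, a lipid flippase subunit (at least 19.9-fold), and RASD1, a RAS-related protein (18.5-fold).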

How the data were processed

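Gene expression was measured on 1 Affymetrix array per line. The table deposited by the authors holds intensity on a linear scale, with a mean of 500.1 on each array after trimming 2% from each end. RMA is named, with no version, in the submitters' processing notes; its output is normally log2, so how these values were scaled is not settled; other steps and a genome build are not given in the sources used here. From the deposited table log2 was taken here. Of 54675 probe sets, 41097 are listed with 1 gene, 1801 with several and 11777 with none. Each gene was read from its brightest single-gene probe set by mean log2, giving 19775 genes, and 14926 reached the floor on an array. Genes were called at a log2 margin of 2 (4-fold) beyond the nearest line; no test was run on single arrays. Genes were taken for naming from the 50 widest higher and 40 widest lower margins and the 5 genes on each side of the threshold. Called members and up to 4 others of each list were added. Not all of these genes are described above, so those described are not the whole top of the ranking. The members and lists were chosen with earlier results of these data known, and 5 lists after the values were seen. Alternatives varied probe set, filter, floor, scaling, threshold, reference and lines. The size rule was run on simulated data with changes far past the threshold, which checks the code and supports no call. Probe sets were named from GEO's platform annotation, with symbols updated through gene IDs to RefSeq on GRCh38.p14, which also gave gene order. Python 3.11.15, pandas 2.3.3, numpy 2.4.6 and matplotlib 3.10.9 were used.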

Additional observations from a re-analysis of the deposited data

How the results depend on the processing

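Counts changed most with the threshold and reference. At a log2 margin of at least 1, 690 genes were higher and 467 lower, at 3 81 and 32, and against the mean of the other lines 484 and 358. Without the floor 326 genes were lower and the share of calls that were higher fell from 66.7% to 46.9%. Without NT2D1 173 genes were lower, without GCT27 361 were higher and 202 lower, and without GCT44 268 were lower and the share of higher calls was 54.1%. Dropping a line relaxes the rule by construction. The other counts lay within 1.5 times the main ones, from 172 to 316 higher and from 79 to 113 lower. Of 155 called genes taken for naming, 24 lost their call with the median over probe sets and 5 more fell below the filter. Without probe sets that match several transcripts 13 lost it, 6 dropped out as too dim and 29 could not be checked, having no other kind of probe set. The call was lost by 11 with scaling to the spiked-in controls, 10 with a floor at the 60th percentile and 1 with centred arrays. No margin of these 155 genes and none of 9 list medians changed sign under any alternative that gave a value. The median difference of germ cell genes was 0.48 without GCT44, 1.22 with the median over probe sets and 1.32 with no filter. That of trophoblast genes was 0.53 and 0.67 with that median and with no filter, that of embryonal carcinoma genes -0.87 without NT2D1 or GCT27, and that of S100 genes 0.00 with no filter and 0.72 with the higher floor. No paired analysis was possible because each line has 1 array. The number of arrays limits the precision, and levels under the floor have no order.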

Other observations

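Probe sets that the annotation table does not list were compared in the same way. Of 5328 that passed the filter, 26 were at least 4-fold higher in TCam-2 (0.488%) and 15 lower (0.282%), and they cannot be named here. The probe set 202286_s_at had 17565 units in TCam-2 and at most 92.1 in another line, a wider margin than that of any named gene. The probe sets 235236_at, with 5342 units against at most 107.6, and 226482_s_at, with 3608 against at most 5.87, followed. Of the lower ones, 207197_at had 361 units against 3162 to 6483.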
